A study of Mus musculus with 3 samples.

Results

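ATP-binding cassette (ABC) transporters are membrane proteins that use ATP to move lipids, drugs, peptides, haem and other molecules across membranes. The family was read here in single-nucleus RNA of mouse hearts taken 2 weeks after surgery. Its members were all genes of the feature list named Abc, a letter from a to g and a number, with or without a last letter, which gave 50 of 32285 genes. They fell into subfamily A with 16 genes, B with 10, C with 10, D with 4, E with 1, F with 3 and G with 6. There was 1 library for each of 3 groups: hearts after sham surgery with NS (Sham-NS), after myocardial infarction with NS (MI-NS), and after myocardial infarction with dapagliflozin, an SGLT2 inhibitor (MI-DAPA). What NS stands for, the strain, sex and age, the dose, the number of hearts per library and the hour of collection are not given in the sources used here. With 1 library per group no p-value is given, and every bracket is a 95% interval for counting error only, which does not cover differences between animals.

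Most ABC proteins pair membrane-spanning domains with cytoplasmic ATPase domains. Subfamily A members mainly move lipids, B holds drug pumps and mitochondrial carriers, C holds exporters of organic anions and the sulfonylurea receptors of potassium channels, and D serves the peroxisome. E and F members have no membrane domain and act on ribosomes, and G members pump sterols and drugs. In the heart, the sulfonylurea receptors ABCC8 and ABCC9 form ATP-sensitive potassium (KATP) channels together with the pore proteins KCNJ11 and KCNJ8.

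The deposited counts summed to 13873275 UMIs for Sham-NS, 10113430 for MI-NS and 8871086 for MI-DAPA, a UMI being 1 tagged RNA molecule. After filtering, 8296, 7065 and 5372 nuclei remained, at median depths of 790 to 851 UMIs. Mitochondrial UMIs had medians of 1.48% to 3.32%, and 13 to 20 barcodes were shared between any pair of libraries. Clustering, with ABC genes left out of the genes it used, gave 24 clusters. Of these, 5 with high doublet scores were set aside as mixed, and the others gave 12 classes called "-like" after fixed markers, besides 1 cluster of 282 nuclei led by cell cycle genes, which was left out of the comparisons between classes. Fixed markers were at least 2-fold above the other nuclei for 9 of 9 in fibroblast-like, 8 of 8 in cardiomyocyte-like and pericyte-like, 10 of 10 in macrophage-like and 10 of 10 capillary markers in vascular endothelial-like nuclei. This describes the clustering and is no test. Some clusters had a marker of another cell type and none of their own among their 10 leading genes: Cdh19, also a Schwann cell marker, in a fibroblast-like cluster led by Dpep1; Vcan, also a monocyte marker, in one led by Pi16; and Kit, also a mast cell marker, in an endothelial-like cluster led by Prnd. The monocyte gene Chil3 had 0 UMIs in the Dpep1-led and Pi16-led clusters of every library. Summed over 7 Schwann or neural markers, the Dpep1-led cluster stood at 1999, 1757 and 1772 UMIs per 1000000 UMIs (CPM) and the Pi16-led cluster at 1851, 917 and 1119. Summed over 7 monocyte markers, the values were 539, 685 and 944 in the Dpep1-led and 1157, 1664 and 1920 in the Pi16-led cluster. In the Prnd-led cluster 5 mast cell markers summed to 483, 327 and 423, with Cpa3 and Mcpt4 at 0. The part of these cells in the results was not tested, and the fibroblast and endothelial values that the results turn on are given by cluster too. Where 3 values stand together here, they are those of the sham library, the MI-NS library and the dapagliflozin library, in this order.

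Across all kept nuclei the family gave 79609 UMIs. Levels are CPM, a gene's UMIs per 1000000 UMIs of the same class and library. The family summed to 3547 CPM in Sham-NS, 2547 for MI-NS and 2692 for MI-DAPA. Of the 50 members, 20 had at least 1000 UMIs, 17 had between 21 and 999, 10 had 1 to 20 and 3 had none. The genes without a UMI were Abca13, Abca15 and Abcb5, and a count of 0 allows up to 0.112 CPM over the 3 libraries together. Fibroblast-like nuclei had the highest family sum in Sham-NS, 7948 CPM, against 3408 for MI-NS and 4722 for MI-DAPA. In pericyte-like nuclei it was 5226, 3480 and 4414. In cardiomyocyte-like nuclei, the muscle cells of the heart, it lay between 2021 and 2182, a narrower range than in fibroblast-like nuclei.

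**Figure D1:**
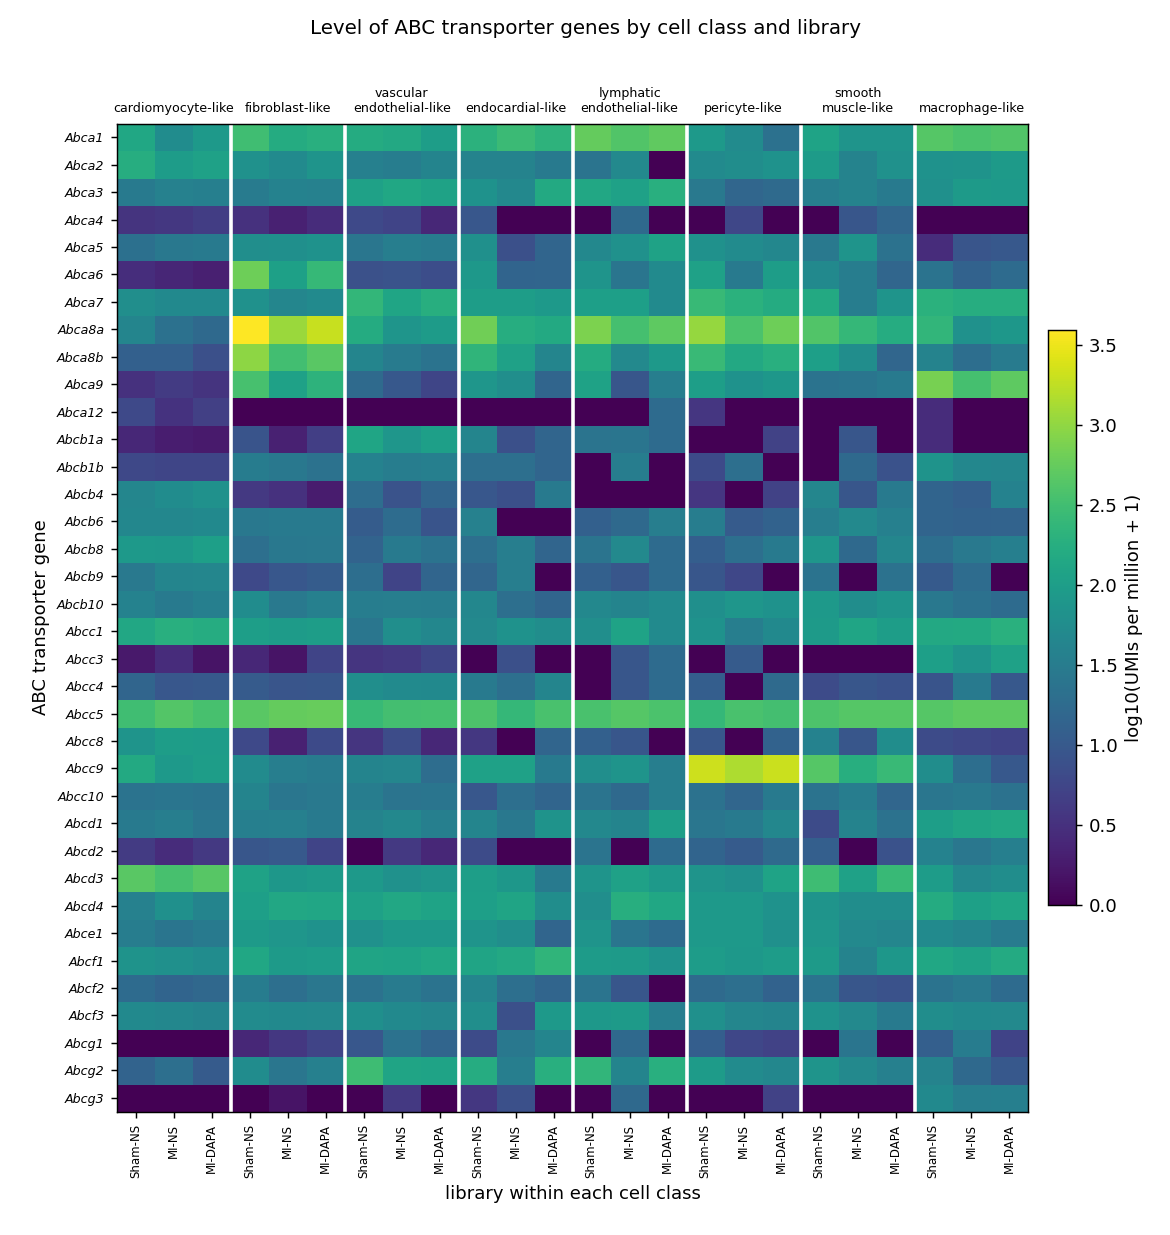
Level of ABC transporter genes with over 20 UMIs (rows) in 8 cell classes with at least 50 nuclei in each library, with 1 column per library in each class. Color is log10 of CPM plus 1; the brightest cells are Abca8a in fibroblast-like and Abcc9 in pericyte-like nuclei.

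A member was called class-restricted when it had at least 20 UMIs in its top class, the same top class in all 3 libraries, and a mean level at least 3 times that of the next of 11 classes. This held for 6 members: Abca8a and Abca6 in fibroblast-like, Abcc9 in pericyte-like, Abcb1a in vascular endothelial-like, Abcc3 in macrophage-like and Abcb1b in mesothelial-like nuclei. The mean level over the next class was 3.38 times for Abca8a and 4.09 times for Abca6, both over pericyte-like nuclei. It was 6.26 times for Abcc9 over smooth muscle-like nuclei, 3.27 times for Abcb1a over T cell-like nuclei and 11.6 times for Abcc3 over lymphatic endothelial-like nuclei. In smooth muscle-like and T cell-like nuclei the cardiomyocyte marker Ttn stood at 20819 to 79148 and 10158 to 67172 CPM. The factors over these classes depend on that share, which was not corrected for. The mesothelial-like call for Abcb1b rests on 14 and 15 nuclei in Sham-NS and MI-DAPA, and was lost when only the 8 classes with at least 50 nuclei in each library were compared. Under a stricter nucleus filter (at least 500 genes and at most 5% mitochondrial UMIs) the top classes were the same, but the factors fell to 2.17 for Abca8a, 2.32 for Abca6, 1.95 for Abcc9 and 1.93 for Abcb1a, below the threshold of 3. With the mixed clusters kept Abca8a came to 2.65, and at a Leiden resolution of 2.0 Abcc3 was highest in a dendritic cell-like class. In nuclei thinned to 1000 UMIs, where the pericyte, vascular endothelial and macrophage classes were not named, 8 members met the rule, 3 of them among these 6, with Abcb1a then restricted to lymphatic endothelial-like nuclei.

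The lipid transporter genes Abca8b, Abca8a, Abca9, Abca6 and Abca5 lie next to each other, in this order, on the minus strand of chromosome 11 (mm10), with Abca8b starting at chr11:109932190-109995845 and Abca5 ending the row at chr11:110269369-110337716. Abca8a lies at chr11:110025634-110095978, Abca9 at chr11:110100749-110168196 and Abca6 at chr11:110176820-110251776. They encode full-length transporters of one branch of subfamily A, in which ABCA8 is tied to cholesterol and sphingolipid export. The upstream sequences are shown because 4 of these neighbours were lower together in the MI-NS fibroblast-like nuclei while Abca5 was not. They are the bases 250 to 51 before each RefSeq start (GRCm38.p6, minus strand, read 5′ to 3′), and Abca6 has no entry. Capitals mark any match to 6 motifs searched on both strands, which were the TATA box (TATAAA), the CCAAT box (spelled as its name), the GC box (GGGCGG), the E-box bound by clock factors (CACGTG), the AP-1 site (TGACTCA) and the liver X receptor DR4 site. No matches overlapped.
Abca8a, chr11:110095988-110096187: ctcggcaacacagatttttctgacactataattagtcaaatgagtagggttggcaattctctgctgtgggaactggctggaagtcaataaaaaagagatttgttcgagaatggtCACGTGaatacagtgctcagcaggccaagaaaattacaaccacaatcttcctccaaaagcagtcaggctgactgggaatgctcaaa
Abca8b, chr11:109995896-109996095: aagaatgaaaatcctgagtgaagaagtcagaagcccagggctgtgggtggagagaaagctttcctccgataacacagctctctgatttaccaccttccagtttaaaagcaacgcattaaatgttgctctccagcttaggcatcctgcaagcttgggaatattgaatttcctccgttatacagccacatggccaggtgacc
Abca9, chr11:110168204-110168403: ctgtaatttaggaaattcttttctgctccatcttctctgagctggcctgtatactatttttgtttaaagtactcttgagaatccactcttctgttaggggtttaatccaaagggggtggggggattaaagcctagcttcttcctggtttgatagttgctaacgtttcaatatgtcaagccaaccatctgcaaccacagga
Abca5, chr11:110337767-110337966: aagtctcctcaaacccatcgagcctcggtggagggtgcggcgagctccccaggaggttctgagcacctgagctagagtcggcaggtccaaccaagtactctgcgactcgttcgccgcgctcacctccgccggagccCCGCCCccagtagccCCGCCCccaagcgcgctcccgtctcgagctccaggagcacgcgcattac
The Abca8a window holds 1 CACGTG, starting 136 bases before the start. Of 32851 promoter windows of this length, 4.34% hold that motif. The Abca5 window holds 2 GC boxes, a motif of 24.6% of windows, and 20 CG dinucleotides against a median of 4 over all windows. The Abca8a, Abca8b and Abca9 windows have 3, 3 and 1 CG dinucleotides. A match is a description of the letters and not a bound site.

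In fibroblast-like nuclei Abca8a stood at 3952 CPM (3846 to 4060) in Sham-NS, 1127 (1078 to 1177) for MI-NS and 1939 (1858 to 2023) for MI-DAPA. Per kb of gene span, introns included, it was the top family member of this class in all 3 libraries, at 56.2, 16.0 and 27.6 CPM per kb. Abca8b stood at 977, 317 and 481 CPM. Abca9 was at 358, 114 and 210 CPM and Abca6 at 630, 110 and 254. For each of these 4 genes Sham-NS was highest, MI-NS lowest and MI-DAPA between them, with intervals that do not overlap. These intervals cover counting error only. The share of all genes of the class with such an order is not given, so it has no background. Abca5, the outer neighbour, was at 58.4, 61.7 and 67.2 CPM, with overlapping intervals.

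Between MI-NS and Sham-NS, 25 members had at least 50 UMIs over both libraries in fibroblast-like nuclei. Of these, 6 were at least 2-fold lower and none was 2-fold higher, while 3.92% of all 8427 genes with that many UMIs were 2-fold lower and 8.88% were 2-fold higher. The median log2 ratio was -0.56 over the members and 0.11 over all these genes. The 6 were Abca6 with a log2 ratio of -2.51 (-2.75 to -2.29), Abca8a with -1.81 (-1.89 to -1.74), Abca9 with -1.65, Abca8b with -1.62, the drug and urate exporter Abcg2 with -1.16 and the mitochondrial inner membrane carrier Abcb10 with -1.01. Abcg2 had 74 and 44 UMIs and Abcb10 74 and 49. In the Pi16-led cluster described below, Abcg2 was at 92.6, 24.6 and 41.8 CPM on 10, 14 and 22 UMIs, and Abcb10 at 37.0, 31.7 and 41.8 on 4, 18 and 22. In the Dpep1-led cluster, with 1 MI-NS UMI for each gene, Abcg2 was at 52.5 CPM in Sham-NS and 46.6 in MI-DAPA, and Abcb10 at 57.4 and 35.0. The Abcg2 ratio was 0.12 in nuclei thinned to 1000 UMIs, and that of Abcb10 was above -1 under 4 of the alternatives. Between MI-DAPA and MI-NS, Abca6 was the only one of 25 members past 2-fold, with a log2 ratio of 1.20 (0.94 to 1.48); 1.09% of all genes were 2-fold higher and 3.36% 2-fold lower. The member median was 0.13, against -0.04 over all genes. Abca9 had 0.88 (0.60 to 1.16), Abca8a 0.78 (0.69 to 0.87) and Abca8b 0.60 (0.43 to 0.77). Both contrasts use the same MI-NS library, so they are not independent of each other.

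**Figure D2:**
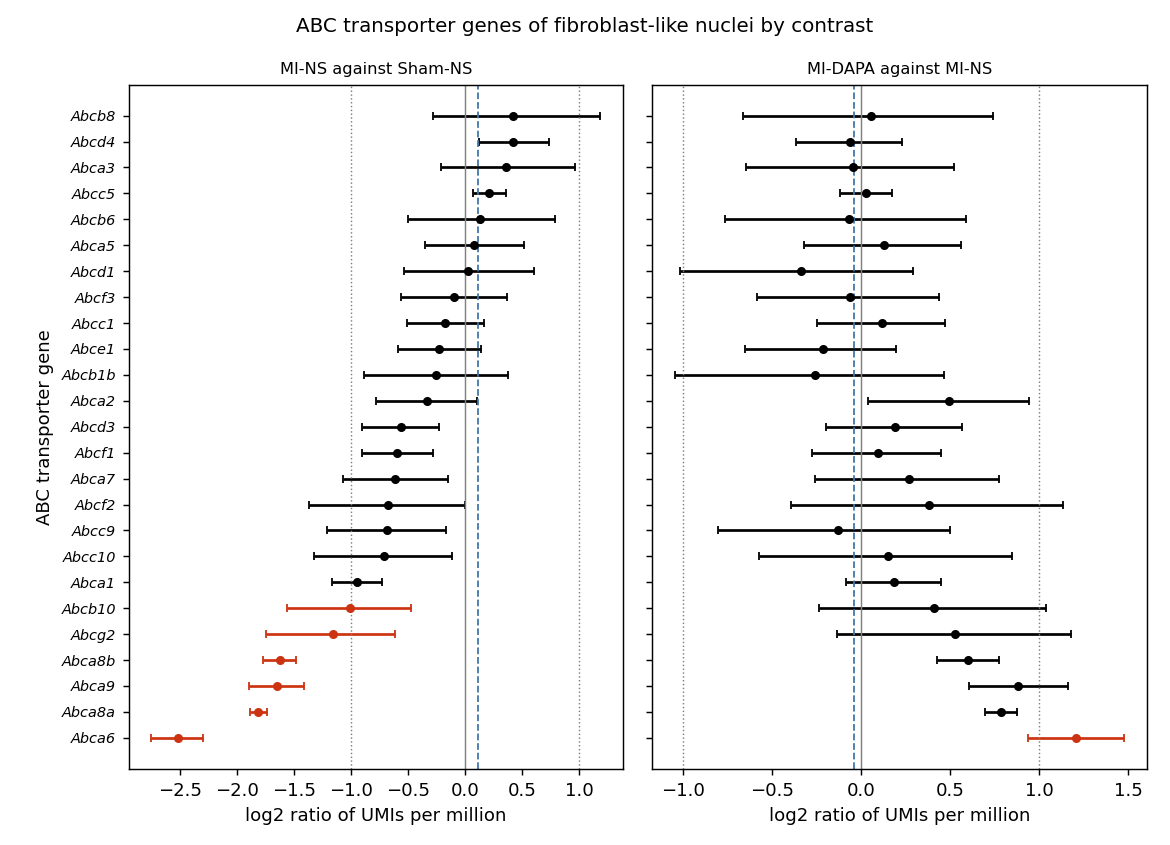
Log2 ratio of CPM in fibroblast-like nuclei for the 25 members with at least 50 UMIs, with 95% counting intervals, for MI-NS against Sham-NS (left) and MI-DAPA against MI-NS (right). Dotted lines mark 2-fold, the dashed blue line the median of all genes, and red points lie past 2-fold: 6 on the left, all lower, and Abca6 alone on the right.

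Fibroblasts make the matrix of the heart, and the clusters of this class differed between the libraries. Of the fibroblast-like nuclei of the sham library 92.4% were in the Dpep1-led cluster, against 2.35% for MI-NS and 17.4% for MI-DAPA. The Comp-led cluster held 0.339%, 62.7% and 33.5%, and the Pi16-led cluster 7.07%, 33.1% and 48.7%. Comp encodes a cartilage matrix protein and Pi16 a secreted protein of fibroblasts. Within the Dpep1-led cluster Abca8a was at 4137 CPM (4024 to 4253) in Sham-NS, 3394 for MI-NS and 3422 for MI-DAPA. Within the Pi16-led cluster it was at 2055 (1793 to 2344), 2416 and 2522 CPM. Within the Comp-led cluster it was at 424 for MI-NS and 541 for MI-DAPA, and Sham-NS had only 6 nuclei there. These Abca8a levels lay further apart between clusters of the same library than between libraries in the same cluster. They rest on only 48 MI-NS nuclei in the Dpep1-led cluster and 125 Sham-NS nuclei in the Pi16-led cluster. The clusters come from the same nuclei, so this is a description and no test. The log2 ratio of MI-NS to Sham-NS was -1.81 over the class, -0.28 (-0.57 to -0.02) within the Dpep1-led cluster and 0.23 (0.03 to 0.44) within the Pi16-led cluster.

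Abca6 was lowest in the Comp-led cluster as well. It stood at 656, 387 and 513 CPM in the Dpep1-led and at 342, 252 and 344 in the Pi16-led cluster, against 31.5 for MI-NS and 25.2 for MI-DAPA in the Comp-led cluster. Its ratio of MI-NS to Sham-NS was -0.71 (-1.68 to 0.02) within the Dpep1-led cluster, on 13 MI-NS UMIs, and -0.46 (-0.98 to 0.12) within the Pi16-led cluster. Its ratio of MI-DAPA to MI-NS within the Pi16-led cluster was 0.45 (0.13 to 0.78), against 1.20 for the class. Abca9 stood at 204, 227 and 277 CPM in the Pi16-led cluster and at 56.9 and 68.0 in the Comp-led cluster of MI-NS and MI-DAPA. In the Pi16-led cluster 11 members were measurable for MI-NS against Sham-NS and 15 for MI-DAPA against MI-NS, and none was past 2-fold in either. Over all genes there 8.52% were 2-fold higher and 2.86% lower in the first contrast, and 1.17% and 2.28% in the second. How much of the class-wide difference follows from the cluster makeup was not tested.

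**Figure D3:**
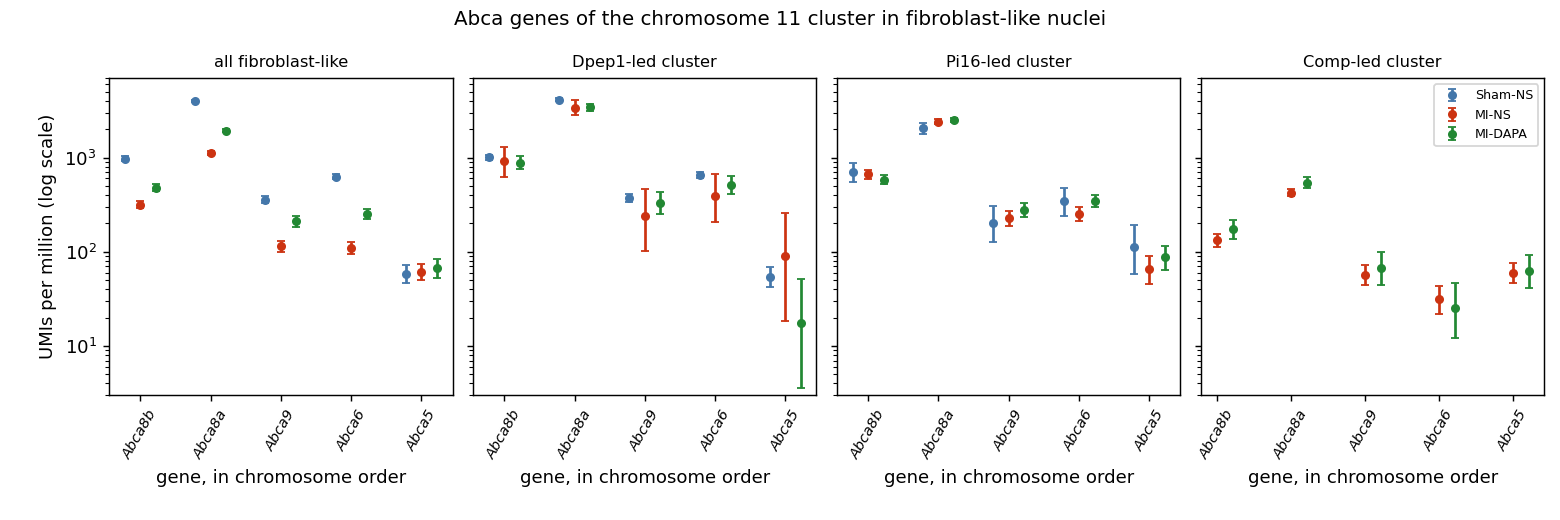
CPM (log scale) of the 5 neighbouring Abca genes in all fibroblast-like nuclei and in their 3 main clusters, by library, with 95% counting intervals. The Sham-NS points of the Comp-led cluster, from 6 nuclei, are not drawn; in the Pi16-led cluster Abca8a lies between 2055 and 2522 in all 3 libraries.

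The clock gene Per2 also differed between the libraries, at 433, 14.6 and 22.7 CPM in fibroblast-like nuclei, and its partner in the opposite phase, Arntl, at 5.99, 158 and 124. Within the Pi16-led cluster Per2 was at 315, 29.9 and 20.9 CPM. Per1, another clock gene, was at 227, 35.4 and 77.2 CPM in fibroblast-like nuclei, on 303, 63 and 85 UMIs. In pericyte-like nuclei Per1 was at 213, 28.9 and 78.7 CPM, on 78, 6 and 19 UMIs. MI-NS was thus lowest for Per1 in both classes. In pericyte-like nuclei Per2 also differed between the infarct libraries, at 4.82 CPM for MI-NS and 70.4 for MI-DAPA, on 1 and 17 UMIs. In vascular endothelial-like nuclei it was at 13.2 and 15.2. Since the hour of collection is not given for any library, hour and surgery cannot be told apart for any contrast with Sham-NS. Nor can hour and treatment be told apart between MI-DAPA and MI-NS.

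Outside fibroblast-like nuclei, Abca8a was highest in pericyte-like nuclei, the mural cells of capillaries, at 1070 CPM (966 to 1181), 381 (301 to 475) and 625 (529 to 733). Here too Sham-NS was highest and MI-NS lowest. It was the only one of 8 measurable members past 2-fold between MI-NS and Sham-NS, with a log2 ratio of -1.48 (-1.86 to -1.14); 3.22% of all genes were 2-fold higher and 4.83% lower. The median over the 8 was -0.48, against -0.10 over all genes. Between MI-DAPA and MI-NS, 5 members were measurable and none was past 2-fold, with 2.45% of genes higher and 1.99% lower. Free RNA can carry counts of one cell type into nuclei of another, so the fibroblast gene Pdgfra was set beside it. In Sham-NS there were 8.30 Abca8a UMIs per Pdgfra UMI in fibroblast-like nuclei, 7.68 in cardiomyocyte-like, 6.45 in vascular endothelial-like and 11 in macrophage-like nuclei, but 56 in pericyte-like nuclei, on 7 Pdgfra UMIs. In MI-DAPA the pericyte-like value was 50.3, on 3 Pdgfra UMIs. In MI-NS the values were 4.09 in fibroblast-like and 7.18 in pericyte-like nuclei, on 11 Pdgfra UMIs. All 9 fibroblast markers had UMIs in pericyte-like nuclei of each library, and their sum was 595, 2285 and 874 CPM, higher in MI-NS where Abca8a was lower. In fibroblast-like nuclei the sum had the same order, at 4586, 8657 and 6420 CPM, and Abca8a was lowest in MI-NS there too. The part of fibroblast RNA in the pericyte-like level was not tested.

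The Abca8a level of other classes moved the same way. In vascular endothelial-like nuclei it stood at 161, 73.1 and 92.8 CPM, a log2 ratio of -1.13 (-1.62 to -0.68). In macrophage-like nuclei it stood at 229, 65.3 and 77.9 CPM, a log2 ratio of -1.80 (-2.36 to -1.29). How much of these levels is free RNA from fibroblasts was not tested. Abca8a UMIs per Pdgfra UMI numbered 6.45, 3.33 and 6.78 in vascular endothelial-like nuclei, on 29, 15 and 9 Pdgfra UMIs, and 11, 3.42 and 3 in macrophage-like nuclei, on 11, 12 and 6, beside 8.30, 4.09 and 4.30 in fibroblast-like nuclei. The macrophage value of the sham library and the vascular value of MI-DAPA thus lay above the fibroblast ones by this marker. By Dcn, another fibroblast gene, the MI-DAPA vascular value lay below the fibroblast one, with 61 Abca8a and 21 Dcn UMIs against 2134 and 502. The macrophage value of Sham-NS stayed above it, with 121 and 22 against 5277 and 1133. Abca9 differed from its neighbours by being highest in macrophage-like nuclei, the phagocytes of the tissue, at 712 CPM (642 to 788), 347 (303 to 397) and 511 (423 to 612). There were 11 Abca8a UMIs per Abca9 UMI in fibroblast-like nuclei of Sham-NS and 0.322 in macrophage-like nuclei. Its log2 ratio of MI-NS to Sham-NS in macrophage-like nuclei was -1.03 (-1.28 to -0.79), and -0.89 under the stricter nucleus filter and -0.81 at a resolution of 2.0. Its ratio of MI-DAPA to MI-NS there was 0.56 (0.22 to 0.89).

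The near copies Abca8a and Abca8b share few long stretches: 1.89% of the 50-base words of the Abca8a transcript are found in Abca8b, and none of those of its last 1000 bases. The same values for Abcb1a and Abcb1b are 15.5% and 0, so reads inside the shared parts could be assigned to either gene.

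Abca1 is the exporter that loads cholesterol and phospholipid onto apolipoprotein particles, and Abcg1 moves sterol to larger particles. Among the 11 classes with at least 100 nuclei, Abca1 was highest in lymphatic endothelial-like nuclei, at 553, 420 and 527 CPM, and next in macrophage-like nuclei, at 441, 381 and 420, with intervals that overlap between the classes. In cardiomyocyte-like nuclei it was at 138 CPM (127 to 150) in Sham-NS, 55.5 (46.0 to 66.4) for MI-NS and 85.1 (75.9 to 95) for MI-DAPA. The 3 intervals do not overlap, and Sham-NS was highest. Its log2 ratio of MI-NS to Sham-NS was -1.31 (-1.61 to -1.02), and -1.26 (-1.60 to -0.95) within the main cardiomyocyte-like cluster, led by Mhrt. It was the only one of 27 measurable members past 2-fold in this class (member median -0.11, all genes 0.13), where 7.28% of all genes were 2-fold higher and 2.15% lower. Between MI-DAPA and MI-NS none of 25 members was past 2-fold (medians 0.04 and -0.16), with 0.42% of genes higher and 4.46% lower, and the Abca1 ratio was 0.61 (0.31 to 0.93). In fibroblast-like nuclei it was at 310, 161 and 183 CPM, a ratio of -0.94 (-1.17 to -0.72) for MI-NS to Sham-NS. Within the Dpep1-led cluster it was at 331, 238 and 239 CPM, with only 8 UMIs in MI-NS, and within the Pi16-led cluster at 92.6, 165 and 169, where the ratio had the opposite sign, 0.77 (-0.10 to 1.94). The Comp-led cluster had 157 CPM for MI-NS and 179 for MI-DAPA. In macrophage-like nuclei the same ratio was -0.21 (-0.48 to 0.05).

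The scale matters for cardiomyocyte-like nuclei. With TMM factors from edgeR in place of total UMIs, the median ratio of all genes there moved down by 0.23 for MI-NS to Sham-NS. The members past 2-fold then numbered 4, all lower: Abca1, Abca2, Abcc9 and Abca8a. The shift applies to every gene of the class. No share of all genes past 2-fold is given on that scale, so this count has no background. For MI-DAPA to MI-NS the CPM median lay 0.26 below the TMM median. In vascular endothelial-like nuclei the shift was 0.21 for the first contrast and -0.12 for the second, and in fibroblast-like, macrophage-like and pericyte-like nuclei it was 0.11 for the first.

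Abcg1 had 131 UMIs in all nuclei. It was at 11.4, 31.9 and 4.33 CPM in macrophage-like nuclei, on 6, 20 and 1 UMIs, too few for a contrast. In cardiomyocyte-like nuclei it had 0 UMIs, which allows up to 0.749, 1.40 and 0.815 CPM. Of 15 genes fixed as sterol efflux partners and liver X receptor genes, 9 were measurable in macrophage-like nuclei. For MI-NS against Sham-NS 1 of them was 2-fold higher, the phospholipid transfer protein gene Pltp, at 125 and 282 CPM. For MI-DAPA against MI-NS 3 were 2-fold lower: Apoe, the apolipoprotein, at 840 against 2190 CPM with a log2 ratio of -1.38 (-1.61 to -1.16), Pltp with -1.36, and the cholesterol esterifying enzyme gene Soat1 with -1.05 (-2.32 to -0.08). Over all macrophage genes 5.51% were 2-fold higher in the first contrast and 4.39% lower in the second. Apoe was lower in the second contrast in 4 other classes as well, with ratios of -1.41 in vascular endothelial-like, -1.24 in pericyte-like, -0.89 in fibroblast-like and -0.84 in cardiomyocyte-like nuclei. In these 4 classes its MI-NS level was 82.5 to 188 CPM. Macrophage-like nuclei were 12.1% of kept nuclei in MI-NS and 6.78% in MI-DAPA. The part of free macrophage RNA in the Apoe levels of the 4 classes was not tested. In fibroblast-like nuclei 12 were measurable, and Nr1h3, which encodes liver X receptor alpha, was 2-fold lower after infarction with NS, at 41.5 CPM against 95.9 in the sham library, and Npc2, a lysosomal cholesterol carrier, 2-fold higher, where 3.92% of all genes were lower and 8.88% higher. In the Pi16-led cluster Nr1h3 was at 18.5, 61.6 and 58.9 CPM, on 2, 35 and 31 UMIs, so that the sham library was lowest there. In the Dpep1-led cluster it was at 103, 89.3 and 64.1, on 3 UMIs in MI-NS, and in the Comp-led cluster at 29.8 and 30.2 in the infarct libraries. Npc2 was at 55.2 and 42.8 in the Comp-led cluster of these libraries.

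Abcc9 encodes the sulfonylurea receptor SUR2 and lies at chr6:142587862-142702315 on the minus strand, next to Kcnj8, the pore gene of the same channel, at chr6:142564837-142571614. Their windows 250 to 51 bases before the start are shown because Abcc9 was restricted to pericyte-like nuclei and Kcnj8 is its neighbour. Kcnj8 was itself a marker used to name that class. Matches to the 6 motifs are again in capitals.
Abcc9, chr6:142702325-142702524: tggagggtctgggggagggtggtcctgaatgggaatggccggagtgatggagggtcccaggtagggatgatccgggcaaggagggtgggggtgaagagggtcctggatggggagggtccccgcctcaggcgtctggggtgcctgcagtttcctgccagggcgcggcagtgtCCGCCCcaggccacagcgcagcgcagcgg
Kcnj8, chr6:142571665-142571864: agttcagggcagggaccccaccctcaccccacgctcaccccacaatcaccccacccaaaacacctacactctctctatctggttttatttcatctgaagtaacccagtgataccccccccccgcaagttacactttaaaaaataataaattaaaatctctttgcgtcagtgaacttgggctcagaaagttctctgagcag
The Abcc9 window is 69.5% G or C, with 1 GC box starting 79 bases before the start, and the Kcnj8 window is 47.5% G or C with no match.

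In pericyte-like nuclei Abcc9 stood at 2101 CPM (1955 to 2255) in Sham-NS, 1441 (1283 to 1614) for MI-NS and 2025 (1849 to 2212) for MI-DAPA. MI-NS was lowest, and the intervals of Sham-NS and MI-DAPA overlap. The log2 ratios were -0.54 (-0.74 to -0.35) for MI-NS to Sham-NS and 0.49 (0.28 to 0.70) for MI-DAPA to MI-NS, short of 2-fold, against medians of -0.10 and 0.12 over all genes of that class. Kcnj8 stood at 633 (554 to 720), 362 (284 to 453) and 667 (568 to 778) CPM, with ratios of -0.80 (-1.20 to -0.43) and 0.88 (0.48 to 1.30). Kcnj8 was a marker used to name this class, so its place there is no finding. Smooth muscle-like nuclei had Abcc9 at 439, 177 and 273 CPM, with MI-NS again the lowest. Kcnj8 was at 83.4, 32.2 and 108 CPM in this class, on 15, 4 and 15 UMIs, too few for a contrast. The cardiomyocyte marker Ttn was at 56004, 20819 and 79148 CPM there, against 103321, 107590 and 145874 in cardiomyocyte-like nuclei. The part of cardiomyocyte RNA in this class, on which its CPM depend, was not tested.

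Cardiomyocyte-like nuclei had Abcc9 at 154 CPM (142 to 167), 86.7 (74.7 to 100) and 99.7 (89.8 to 110), a log2 ratio of -0.83 (-1.08 to -0.59) for MI-NS to Sham-NS. Abcc8, which encodes the other sulfonylurea receptor, SUR1, was highest in this class in all 3 libraries, at 72.4 (64.3 to 81.3), 99.3 (86.4 to 114) and 96.2 (86.4 to 107) CPM. Its ratio of MI-NS to Sham-NS was 0.46 (0.19 to 0.72), opposite in sign to that of Abcc9. Kcnj11, the pore gene of muscle KATP channels, was at 42.2, 56.9 and 41.6 CPM. Its ratio was 0.43 (0.08 to 0.78) for MI-NS to Sham-NS and -0.45 (-0.81 to -0.10) for MI-DAPA to MI-NS. Of these 2 pore genes none was past 2-fold in a class where it was measurable. The shares of all genes past 2-fold in cardiomyocyte-like and pericyte-like nuclei are given above. With TMM factors every ratio of cardiomyocyte-like nuclei moved down by 0.23 for MI-NS to Sham-NS. That is more than 0.19 and 0.08, the lower ends for Abcc8 and Kcnj11. For MI-DAPA to MI-NS the ratios moved up by 0.26, which takes the upper end for Kcnj11, -0.10, above 0. These intervals then include 0, while the Abcc9 ratio for MI-NS to Sham-NS was -1.06.

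**Figure D4:**
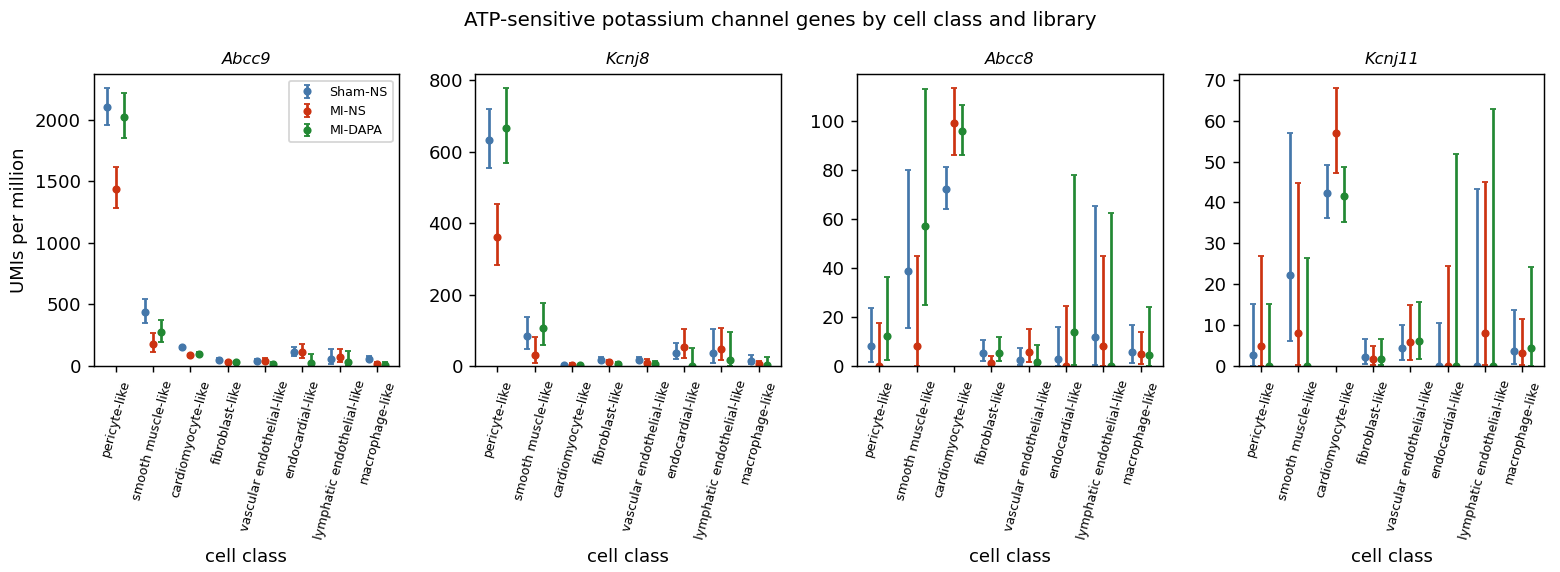
CPM of the KATP channel genes Abcc9, Kcnj8, Abcc8 and Kcnj11 in 8 cell classes, by library, with 95% counting intervals; each panel has its own scale from 0. Abcc9 and Kcnj8 are highest in pericyte-like nuclei with MI-NS lowest, and Abcc8 and Kcnj11 are highest in cardiomyocyte-like nuclei. Kcnj8 was a marker used to name the pericyte-like class, so its place there is no finding.

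The clusters of vascular endothelial-like nuclei differed in size between the libraries: the Car4-led cluster held 1524 of 1729 nuclei in the sham library, 526 of 945 for MI-NS and 593 of 979 for MI-DAPA, and the Prnd-led cluster 69, 331 and 312. The drug pumps of blood vessels are Abcb1a, which encodes P-glycoprotein and was restricted to vascular endothelial-like nuclei, and Abcg2. Abcb1a stood at 129 CPM (109 to 151), 77.5 (58.1 to 101) and 106 (83.0 to 134), with a log2 ratio of -0.73 (-1.21 to -0.27) for MI-NS to Sham-NS. Within the Car4-led cluster it was at 126, 99.6 and 112 CPM, a ratio of -0.33 (-0.92 to 0.20). Abcg2 stood at 305 (274 to 339), 124 (99.3 to 154) and 122 (96.5 to 151) CPM, so that both infarct libraries lay below Sham-NS. Its ratio was -1.29 (-1.65 to -0.95) for MI-NS to Sham-NS and -0.03 (-0.49 to 0.43) for MI-DAPA to MI-NS. Within the Car4-led cluster, named here for a capillary gene, Abcg2 was at 322, 147 and 137 CPM, a ratio of -1.12 (-1.58 to -0.71). Under the stricter nucleus filter the class ratio was -0.94, short of 2-fold.

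In vascular endothelial-like nuclei 22 members were measurable for MI-NS against Sham-NS, with 1 at least 2-fold higher and 2 lower, against 6.29% and 2.72% of all genes. The median log2 ratio was -0.13 over these members and 0.09 over all genes. The lower ones were Abcg2 and Abca8a. The higher one was Abcc1, an exporter of glutathione conjugates, at 24.9, 58.5 and 45.6 CPM, on 29, 40 and 30 UMIs, with a ratio of 1.22 (0.50 to 1.97) that came to 0.30 under the stricter filter. Within the Car4-led cluster it was at 23.5, 52.6 and 38.1 CPM, on 24, 19 and 15 UMIs. For MI-DAPA against MI-NS none of 15 was past 2-fold, with 0.803% of genes higher and 3.59% lower. Summed fibroblast markers in this class were 415, 1373 and 324 CPM. The cyclic nucleotide exporter Abcc4 was at 58.5, 51.2 and 50.2 CPM, with overlapping intervals.

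**Figure D5:**
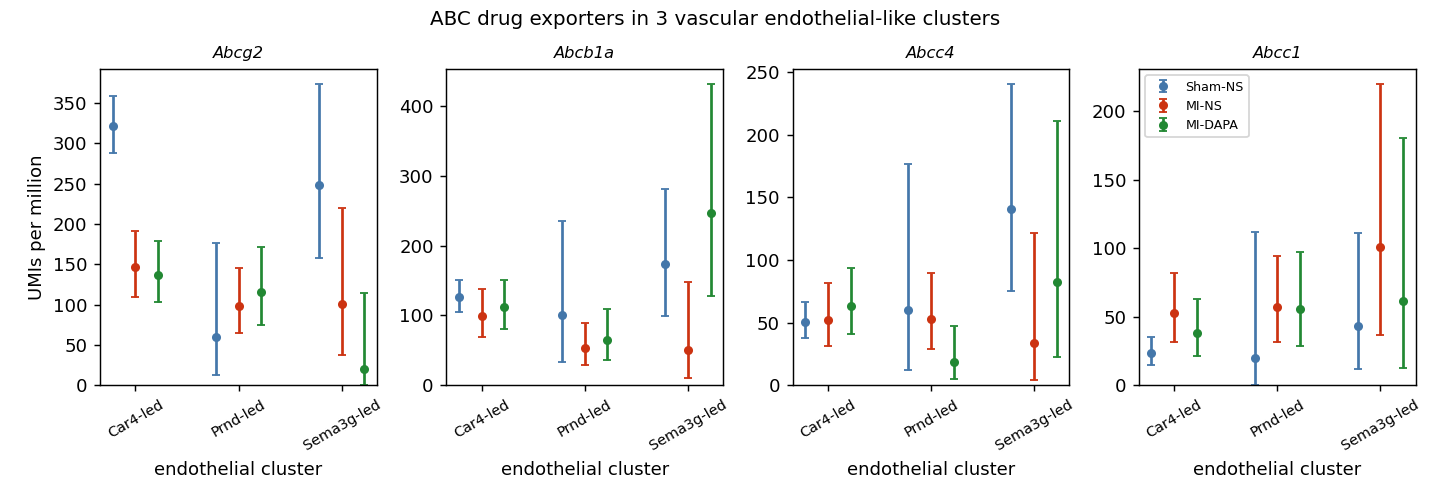
CPM of Abcg2, Abcb1a, Abcc4 and Abcc1 in the 3 vascular endothelial-like clusters, led by Car4, Prnd and Sema3g, by library, with 95% counting intervals; each panel has its own scale from 0. In the Car4-led cluster Abcg2 is at 322 in Sham-NS and at 147 and 137 in the infarct libraries, while the smaller clusters have wide intervals.

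Abcc3, an exporter of glucuronides and bile acids, was restricted to macrophage-like nuclei, at 108 CPM (81.7 to 140), 71.7 (52.3 to 95.9) and 113 (73.5 to 165), with overlapping intervals. In this class 16 members were measurable for MI-NS against Sham-NS, and 3 were 2-fold lower, against 2.12% of all genes, while 5.51% of genes and no member were higher. The median log2 ratio was -0.21 over these members and 0.05 over all genes. They were Abca8a, Abca9 and the peroxisomal fatty acid transporter Abcd3, at 96.6, 46.2 and 56.3 CPM with a ratio of -1.05 (-1.77 to -0.38). The Abcd3 ratio was -0.59 under the stricter filter and -0.97 with mixed clusters kept, both short of 2-fold. For MI-DAPA against MI-NS none of 12 was past 2-fold, with 1.25% of genes higher and 4.39% lower. Summed fibroblast markers here were 399, 1367 and 502 CPM. Abcb1b, the second mouse P-glycoprotein gene, was at 70.0, 44.6 and 43.3 CPM in macrophage-like nuclei and at 56.8 CPM in the 453 mesothelial-like nuclei of MI-NS.

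Of 9 genes fixed as partners in drug and bile acid uptake, 5 were measurable in fibroblast-like nuclei for MI-NS against Sham-NS, and 2 were 2-fold lower: the organic anion importer Slco2b1, at 212, 30.3 and 91.8 CPM, and Slco3a1, at 80.9, 38.2 and 70.9. Over all genes of the class 3.92% were lower and 8.88% higher. For both genes the MI-DAPA level over the class lay between the others. Within the Pi16-led cluster Slco2b1 was at 55.5, 63.3 and 96.9 CPM, on 6, 36 and 51 UMIs, and Slco3a1 at 111, 52.8 and 77.9. Within the Dpep1-led cluster Slco2b1 was at 226, 149 and 233, on 5 UMIs in MI-NS, and within the Comp-led cluster at 10.5 for MI-NS and 15.1 for MI-DAPA.

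Abcc6, whose loss causes soft tissue calcification, had 6 UMIs in all nuclei. Of 6 mineral partner genes 3 were measurable in fibroblast-like nuclei, and Enpp1, which makes the mineralization inhibitor pyrophosphate, was 2-fold higher in the MI-NS library than in the sham one, with a log2 ratio of 2.47, where 8.88% of all genes were higher. Within the Pi16-led cluster it was at 74.0, 143 and 116 CPM, on 8, 81 and 61 UMIs, and within the Comp-led cluster at 213 for MI-NS and 282 for MI-DAPA. In the Dpep1-led cluster it was at 30.4 in Sham-NS and 46.6 in MI-DAPA. In cardiomyocyte-like nuclei 5 were measurable, and Nt5e and Mgp were 2-fold higher, against 7.28% of all genes. Mgp, a matrix protein gene, was at 22.5, 69.0 and 15.5 CPM there, and the summed fibroblast markers of that class were at 92.2, 316 and 81.2. Its ratio of MI-NS to Sham-NS was also above 0 in vascular endothelial-like (0.75), macrophage-like (0.95), pericyte-like (0.72) and fibroblast-like nuclei (0.32), and the part of fibroblast RNA in it was not tested.

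Among the peroxisomal D members, Abcd3 was highest in cardiomyocyte-like nuclei, at 469 CPM (449 to 491), 350 (325 to 376) and 464 (442 to 486). MI-NS lay below the others, with log2 ratios of -0.42 (-0.55 to -0.30) and 0.41 (0.28 to 0.53). Per kb of gene span it was the top member of this class in MI-NS and MI-DAPA, at 6.19 and 8.20 CPM per kb, and Abca2 was the top in Sham-NS, at 8.86. Over 5 classes the D members gave 13 measurable ratios of MI-NS to Sham-NS, with 1 past 2-fold, from -1.05 for Abcd3 in macrophage-like nuclei, where 2.12% of all genes were lower and which 2 of the alternatives above put short of 2-fold, to 0.75 for Abcd4, the lysosomal cobalamin transporter, in cardiomyocyte-like nuclei. Of 8 peroxisome partner genes 7 were measurable in cardiomyocyte-like nuclei, and Elovl1, a fatty acid elongase, was the one past 2-fold, higher in MI-NS at 18.2 against 7.99 CPM, where 7.28% of all genes were higher.

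The mitochondrial B members Abcb6, Abcb8 and Abcb10 work in haem-related transport and in the potassium flux of the inner membrane. They gave 7 measurable ratios of MI-NS to Sham-NS over 5 classes, from -1.01 to 0.43, with Abcb10 in fibroblast-like nuclei the only one past 2-fold, in a class where 3.92% of all genes were lower. Their 6 measurable ratios of MI-DAPA to MI-NS lay between -0.07 and 0.41. Among the same 11 classes Abcb8 was highest in cardiomyocyte-like nuclei on average, at 87.4, 81.1 and 107 CPM. Of 10 haem and iron-sulphur partner genes, all 10 were measurable in cardiomyocyte-like nuclei for MI-NS against Sham-NS. None was past 2-fold, where 7.28% of all genes were higher and 2.15% lower. In fibroblast-like nuclei 1 of 8, the scaffold gene Iscu, was lower, on 36 and 21 UMIs, against the same 3.92% of genes.

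Abce1, which splits ribosomes after termination, and Abcf1, Abcf2 and Abcf3, which act in translation and its control, make up the members without a membrane domain. Their 15 measurable ratios of MI-NS to Sham-NS over 5 classes lay between -0.68 and 0.35 and their 12 of MI-DAPA to MI-NS between -0.22 and 0.41, with none past 2-fold. None of 5 measurable ribosome partner genes in cardiomyocyte-like and 6 in fibroblast-like nuclei was past 2-fold either. Over all genes of the 5 classes 3.22% to 8.88% were 2-fold higher and 2.12% to 4.83% lower in the first contrast. In the second these shares were 0.42% to 2.45% and 1.99% to 4.46%. With so few members, none past 2-fold is no sign of a stability of their own. Abcc5, a nucleotide exporter found in every class, was the member with the most UMIs in vascular endothelial-like nuclei of MI-NS and MI-DAPA, at 333 and 339 CPM. In MI-NS it led several other classes too. Among them were cardiomyocyte-like nuclei at 428 CPM, macrophage-like at 513, lymphatic endothelial-like at 444 and smooth muscle-like at 450.

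Tap1, Tap2 and Cftr belong to the ABC family without the Abc symbol. Tap1 and Tap2 carry peptides into the endoplasmic reticulum for loading onto MHC class I molecules, and Cftr is a chloride channel. In cardiomyocyte-like nuclei Tap1 stood at 7.99, 21.9 and 8.42 CPM, with log2 ratios of 1.45 (0.78 to 2.15) for MI-NS to Sham-NS and -1.37 (-2.08 to -0.69) for MI-DAPA to MI-NS. Tap2 stood at 14.0, 35.4 and 19.0 CPM, with ratios of 1.34 (0.82 to 1.87) and -0.90 (-1.39 to -0.41). MI-NS was highest for both. Of 7 peptide loading partners 4 were measurable there, and Tapbp and B2m were 2-fold higher in the MI-NS library than in the sham one, and 2-fold lower in the dapagliflozin library than in MI-NS. Over all genes of the class 7.28% were higher in the first contrast and 4.46% lower in the second. B2m, the light chain of MHC class I, was at 11.7, 42.0 and 8.15 CPM, and the summed fibroblast markers of this class, at 92.2, 316 and 81.2 CPM, had the same order. B2m was also higher in MI-NS and lower in MI-DAPA in other classes, with ratios of 1.78 and -2.94 in pericyte-like, 1.45 and -1.81 in vascular endothelial-like, 1.30 and -1.26 in fibroblast-like and 0.55 and -1.64 in macrophage-like nuclei. The part of RNA from other cells in the cardiomyocyte-like values was not tested. In vascular endothelial-like nuclei Tap1 was higher than in cardiomyocyte-like nuclei in each library, at 198, 208 and 166 CPM. Cftr had 0 UMIs in cardiomyocyte-like and fibroblast-like nuclei.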

How the data were processed

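The deposited files hold UMI counts per gene and nucleus, made with Cell Ranger 6.0.1 per the file headers; the submitters' processing notes also name mm10 and Seurat, without their role. Whether intronic reads were counted is not given in the sources used here. Nuclei with at least 300 genes and at most 10% mitochondrial UMIs were kept. They were clustered with scanpy 1.11.5 and leidenalg 0.10.2 on 2000 variable genes per library, pooled to 4250 after 14 ABC genes were left out, with 30 principal components, 15 neighbours and a Leiden resolution of 1.0. Scrublet called 0, 1 and 2 doublets and so did not work here; 5 clusters with a median doublet score above 0.1 were set aside instead, which held 15.0%, 11.5% and 9.79% of nuclei.

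Counts were summed per class and library and divided by the class total. Ratios had 0.5 UMI added to each sum, with exact conditional binomial intervals, and levels had exact Poisson intervals (scipy 1.17.1). A member was measurable at 50 UMIs over both libraries of a contrast, and past the threshold at 2-fold. The scripts were tested on simulated data. No test was run, as no group has a second library. TMM factors from edgeR 4.0.16 were an alternative, with others in the closing section.

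The members and gene lists were chosen with earlier results of these data known. The rule named members that were class-restricted, past 2-fold in a contrast or highest in a class, besides Abca8a, Abca6, Abcc9, Abca1 and Abcg1; Abca5, Abcb8, Abcc4, Abcc8, Abcd2, Abcd4 and Abcg3 fell outside it unless they met it, and were named after their values were seen. Partner genes come from 9 fixed lists. Gene positions are those of GENCODE M21, in which all 50 members were matched by gene ID, and promoter sequences are from RefSeq (GRCm38.p6), which held 38 members. Some genes are not reported here by name; counts over the family and sums over marker lists include them.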

Additional observations from a re-analysis of the deposited data

Results flagged for a closer look

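For 2 members, ratios in 2 classes lay on opposite sides of 0 with intervals that leave out 0; the difference between the classes was not tested, since each group has 1 library. Abcd4, the lysosomal cobalamin transporter, had a log2 ratio of MI-NS to Sham-NS of 0.75 (0.40 to 1.09) in cardiomyocyte-like nuclei and -0.58 (-1.06 to -0.11) in macrophage-like nuclei. Abca1, the cholesterol exporter, had a log2 ratio of MI-DAPA to MI-NS of 0.61 (0.31 to 0.93) in cardiomyocyte-like nuclei and -0.58 (-1.05 to -0.12) in vascular endothelial-like nuclei. The second of these was -0.09 under the stricter nucleus filter.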

How the results depend on the processing

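Of 75 counts under the alternatives, 62 stayed within 1.5 times of their main value. Shares over all genes are given for the main setting only. The members past 2-fold in cardiomyocyte-like nuclei numbered 4 with TMM factors and 2 at a minimum of 20 UMIs, against 1, for MI-NS against Sham-NS. For MI-DAPA against MI-NS there was 1 with ABC genes kept among the variable genes and 1 under the stricter nucleus filter, against 0. In fibroblast-like nuclei the count for MI-DAPA against MI-NS was 2 with mixed clusters kept, against 1. In vascular endothelial-like nuclei it was 7 at 20 UMIs, against 3, for MI-NS against Sham-NS, and 2 under the stricter filter and 1 at 20 UMIs, against 0, for MI-DAPA against MI-NS. In macrophage-like nuclei it was 5 with mixed clusters kept, 8 at 20 UMIs and 1 at 200 UMIs, against 3, for the first contrast, and 2 at 20 UMIs, against 0, for the second. Class-restricted members numbered 3 under the stricter filter, against 6, and 8 in nuclei thinned to 1000 UMIs, which kept 3 of the 6 and lost Abcb1b, Abcc3 and Abcc9. No pericyte class was named there, and Abcc9 was highest in cardiomyocyte-like nuclei. Except for the minimum, which sets how many members are counted, the cause was not tested. Of 204 ratios of named members, 189 stayed within the counting interval of the main ratio, 14 moved out of it and 1 reversed, that of Abcg2 in fibroblast-like nuclei, 0.12 in nuclei thinned to 1000 UMIs; the cause was not tested. Vascular endothelial-like and macrophage-like classes were not named in thinned nuclei, so these gave no value. No paired analysis was possible because each group has 1 library. Nor could a replicate be left out. Depth limits the rarer members: 13 of 50 had at most 20 UMIs.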

Other observations

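The adipocyte-like class, 89 of whose 92 nuclei came from MI-NS, had the cholesterol exporter Abca1 at 612 CPM on 114 UMIs and the peroxisomal fatty acid transporter Abcd2 at 285 CPM on 53 UMIs in that library. The other libraries gave 1 and 2 such nuclei, so no comparison was made. Abcg3, a rodent member of subfamily G, met the rule for a class-restricted member when only classes with at least 50 nuclei in each library were compared, a choice made after the class sizes were seen: its mean level in macrophage-like nuclei was 7.27 times that in lymphatic endothelial-like nuclei.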
